A study of Danio rerio with 20 samples.

Results

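Hox genes encode homeodomain transcription factors that give cells their identity along the head-to-tail axis. They lie in clusters, and members with the same paralog number descend from a common ancestral gene: low numbers act in the hindbrain and high numbers in the trunk, tail and fins. In vertebrates low-numbered genes tend to be switched on before high-numbered ones, retinoic acid and caudal (Cdx) factors act upstream of them, and Pbx and Meis proteins bind DNA with them. Members were the rows of the table whose zebrafish symbol was hox followed by a, b, c or d and a number, and 48 of the 32057 gene IDs met that rule, covering paralog numbers 1 to 13.

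The study followed whole zebrafish embryos at 8, 10, 12, 14 and 16 hours post fertilization (hpf), from gastrulation into somite formation, with 2 libraries for each of 2 pool types at each of the 5 stages. MPNP pools were not genotyped and came from crosses between mdm2+/- parents, mdm2 encoding the ubiquitin ligase that keeps p53 low, so that by Mendelian expectation about 25% of embryos were mdm2-/-, the rest being mdm2+/- or mdm2+/+. PNP pools came from parents without the mdm2 mutation, crossed among themselves. All embryos of both pool types were puma-/-, noxa-/- and p21-/-, so that these 3 effectors of p53 were missing from the controls as well. The share of mutants in a pool was not measured, every MPNP value averages over genotypes, and about 50 embryos fertilized within 15 min went into each library.

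Values are TPM, shares of all transcripts scaled by transcript length, which can be compared between genes but keep no read depth. The number of genes at 1 TPM or more ran from 13080 to 15326 per library. The mdm2 gene itself stood at 116 and 149 TPM in the MPNP libraries and at 112 and 125 TPM in the PNP libraries at 8 hpf, and at 317 and 325 TPM against 113 and 114 TPM at 16 hpf. These values count all transcripts of the gene, and mutant ones could not be told apart. Stage labels were checked with egr2 (ENSDARG00000042826), a marker of hindbrain segments that are set up around the first somites: it lay between 0 and 0.15 TPM in the 8 libraries of 8 and 10 hpf, between 2.58 and 9.88 TPM at 12 hpf, and at 29.95 TPM or more later. Its values at 8 and 10 hpf overlapped, as did those at 14 and 16 hpf, so it could not tell those stages apart.

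Hox transcripts rose steeply over these 8 hours of development. The summed level of the 48 members was 17.0 to 23.5 TPM at 8 hpf and 220 to 350 TPM at 10 hpf. It reached 672 to 882 TPM at 12 hpf, 789 to 1041 TPM at 14 hpf and 801 to 1015 TPM at 16 hpf. At 8 hpf 1 or 2 members per library reached 1 TPM, and at 16 hpf 41 to 43 did. The 2 highest members made up 73.6% to 77.2% of the sum at 8 hpf and 24.9% to 26.1% at 16 hpf.

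**Figure D1:**
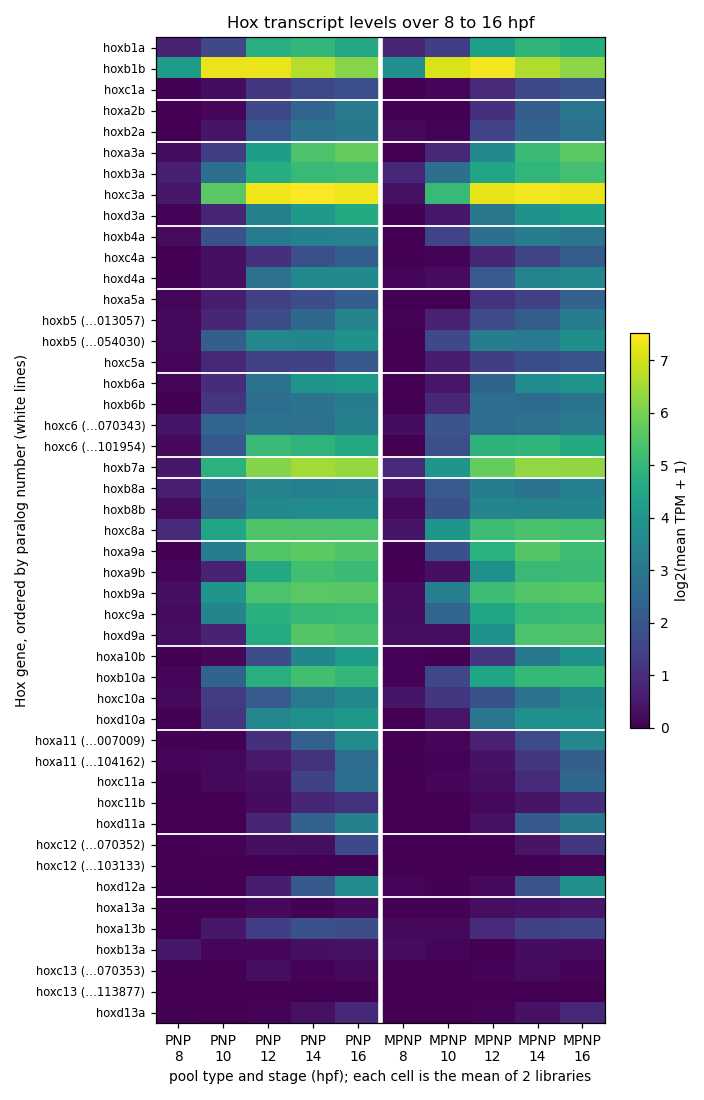
Mean level of 47 of the 48 Hox genes, as log2(mean TPM + 1) by colour, with genes in rows ordered by paralog number (white lines part the numbers) and pool type and stage in columns, each cell a mean of 2 libraries. At 8 hpf only hoxb1b stands out, hoxc3a, hoxb7a and hoxc8a are among the next to brighten, at 10 hpf, number 11 and 12 genes brighten at 14 and 16 hpf, and most number 13 genes stay dark.

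Among the number 1 genes, hoxb1b was the earliest Hox transcript. It acts in zebrafish gastrulae as an early retinoic acid target that patterns the hindbrain. At 8 hpf it stood at 11.5 and 13.8 TPM in MPNP and at 17.0 and 16.3 TPM in PNP libraries, and at 10 hpf at 131 and 139 TPM against 158 and 152 TPM. At 12 hpf the values were 145 and 187 TPM in MPNP and 143 and 167 TPM in PNP libraries, at 14 hpf 90.3 and 105 TPM against 93.1 and 109 TPM, and at 16 hpf 61.9 and 83.1 TPM against 64.2 and 75.3 TPM. The pool types were apart at 8 and 10 hpf and overlapped from 12 hpf on. It was the one member that fell by the limma test, from 12 to 14 hpf by 0.68 ± 0.12 (SE) on the log2(TPM + 1) scale (adjusted p = 0.00108) and from 14 to 16 hpf by 0.49 ± 0.12 (adjusted p = 0.0133). The later fall was no longer called without MPNP replicate 2 or PNP replicate 2 of 14 hpf, or without MPNP replicate 1 or PNP replicate 1 of 16 hpf.

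No other number 1 gene was on as early. hoxb1a, which specifies the hindbrain segment that forms the facial motor neurons, rose from 0.72 ± 0.246 TPM (SD, n = 4 libraries of both pool types) at 8 hpf to 21.5 ± 5.03 TPM at 12 hpf and 30.1 ± 1.41 TPM at 14 hpf. hoxc1a reached 2.76 ± 1.12 TPM at 16 hpf, its highest stage.

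Both number 2 genes appeared after many genes of higher number. hoxb2a, the more abundant of them, was between 0 and 0.45 TPM in the 8 libraries of 8 and 10 hpf. At 12 hpf it stood at 2.2 and 1.54 TPM in MPNP and at 3.56 and 2.88 TPM in PNP libraries. At 14 hpf the values were 3.88 and 4.67 TPM against 5.05 and 6.92 TPM, and at 16 hpf 5.24 and 7.09 TPM against 6.34 and 7.73 TPM, so that the pool types were apart at 12 and 14 hpf and overlapped at 16 hpf. hoxa2b, needed for the identity of the second pharyngeal arch, went from 0.053 ± 0.056 TPM at 10 hpf to 7.25 ± 1.64 TPM at 16 hpf.

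The number 3 genes held the most abundant member of the whole set. hoxc3a, which mammals lack, was at 0.33 and 0.21 TPM in MPNP and 0.36 and 0.41 TPM in PNP libraries at 8 hpf, and at 27.8 and 36.9 TPM against 42.5 and 52.3 TPM at 10 hpf. At 12 hpf it stood at 144 and 153 TPM in MPNP and 150 and 175 TPM in PNP libraries, at 14 hpf at 154 and 178 TPM against 167 and 197 TPM, and at 16 hpf at 142 and 173 TPM against 157 and 162 TPM. The pool types were apart at 10 hpf, and at 8 hpf with all values below 1 TPM, and overlapped later. Its rise from 8 to 10 hpf, 4.91 ± 0.11 (SE) on the log2 scale, was the largest of any member at any step (adjusted p = 2.71e-11). The span of hoxc3a in the RefSeq annotation of a later assembly (GRCz12tu) overlaps those of hoxc4a, hoxc5a, hoxc6a, hoxc8a and hoxc9a, and those of hoxa3a, hoxb3a, hoxd3a and hoxb1b also overlap neighbouring members, so how reads were divided among them is uncertain. hoxa3a reached 49.9 ± 4.54 TPM, hoxb3a 36.5 ± 1.68 TPM and hoxd3a 20.2 ± 4.37 TPM at 16 hpf.

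The highest stage mean of any number 4 or 5 gene was 12.8 TPM. hoxd4a lay between 0 and 0.34 TPM in the 8 libraries of 8 and 10 hpf. At 12 hpf it had 3.66 and 3.29 TPM in MPNP and 5.02 and 6.81 TPM in PNP libraries, at 14 hpf 7.39 and 11.29 TPM against 9.92 and 12.06 TPM, and at 16 hpf 8.00 and 12.65 TPM against 10.55 and 11.14 TPM. For hoxd4a MPNP and PNP were apart at 12 hpf and overlapped at 14 and 16 hpf. hoxb4a, a gene of the posterior hindbrain, peaked at 8.46 ± 1.67 TPM at 14 hpf, and hoxc4a reached 3.71 ± 0.64 TPM at 16 hpf.

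Of the number 5 genes the most abundant was a hoxb5 gene (ENSDARG00000054030) whose paralog letter could not be settled. It was between 0 and 0.17 TPM at 8 hpf and reached 1.15 and 3.18 TPM in MPNP and 3.49 and 4.10 TPM in PNP libraries at 10 hpf. The later MPNP values were 7.64 and 8.10 TPM at 12 hpf, 6.12 and 8.79 TPM at 14 hpf and 10.43 and 14.58 TPM at 16 hpf. The PNP values were 10.38 and 9.99 TPM, 8.85 and 10.83 TPM, and 13.76 and 12.53 TPM at the same stages. Both MPNP libraries lay below both PNP libraries at 10, 12 and 14 hpf, and at 8 hpf at levels too low to read. Its partner hoxb5 (ENSDARG00000013057) reached 8.74 ± 1.41 TPM, hoxa5a 3.96 ± 0.868 TPM and hoxc5a 3.04 ± 0.809 TPM at 16 hpf.

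Number 6 to 8 genes, which pattern the trunk, included early members. A hoxc6 gene (ENSDARG00000101954) was between 0 and 0.22 TPM at 8 hpf, and stood at 1.41 and 3.71 TPM in MPNP and 2.51 and 3.93 TPM in PNP libraries at 10 hpf. At 12 hpf its values were 28.3 and 27.9 TPM against 30.9 and 33.6 TPM, at 14 hpf 26.5 and 32.1 TPM against 24.9 and 32.0 TPM, and at 16 hpf 20.8 and 25.2 TPM against 19.8 and 24.9 TPM. It was highest at 12 hpf, and the pool types were apart at that stage, and at 8 hpf at levels too low to read. The other number 6 genes, hoxb6a, hoxc6 (ENSDARG00000070343) and hoxb6b, reached 15.0 ± 2.03 TPM, 8.17 ± 0.59 TPM and 7.14 ± 1.76 TPM at 16 hpf.

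hoxb7a was the only number 7 gene among the members. It had 1.25 and 0.47 TPM in MPNP and 0.41 and 0.40 TPM in PNP libraries at 8 hpf, then 8.89 and 19.44 TPM against 21.76 and 31.95 TPM at 10 hpf. The MPNP values that followed were 44.4 and 60.1 TPM at 12 hpf, 59.8 and 96.6 TPM at 14 hpf and 61.7 and 91.2 TPM at 16 hpf. The PNP values were 56.0 and 80.0 TPM, 67.5 and 109 TPM, and 70.8 and 86.3 TPM. Within each pool type the library numbered 2 was higher than the library numbered 1 from 10 hpf on, and the pool types overlapped from 12 hpf on. Both MPNP libraries lay below both PNP libraries at 10 hpf, and above them at 8 hpf at levels near or below 1 TPM.

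All 3 number 8 genes reached 1 TPM in all libraries by 10 hpf. hoxc8a was at 0.69 and 0 TPM in MPNP and 0.74 and 0.99 TPM in PNP libraries at 8 hpf, and at 12.7 and 16.1 TPM against 16.8 and 24.5 TPM at 10 hpf. The MPNP values were then 32.9 and 38.1 TPM, 34.8 and 45.8 TPM, and 33.6 and 44.0 TPM at 12, 14 and 16 hpf, and the PNP values 37.2 and 48.3 TPM, 34.6 and 49.0 TPM, and 40.9 and 40.5 TPM. It was near its plateau by 12 hpf, with the pool types apart only at 10 hpf and, all values being below 1 TPM, at 8 hpf. hoxb8b stood at 10.2 ± 0.937 TPM and hoxb8a at 8.53 ± 1.16 TPM at 12 hpf.

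The number 9 genes, which act in the posterior trunk, gave the largest sum of any number but 3 from 14 hpf on. hoxb9a was the most abundant of them. It had 0.13 and 0.18 TPM in MPNP and 0.30 and 0.19 TPM in PNP libraries at 8 hpf, and 6.61 and 10.09 TPM against 11.98 and 16.41 TPM at 10 hpf. The MPNP values then were 32.7 and 38.5 TPM, 36.7 and 50.1 TPM, and 37.8 and 53.7 TPM at 12, 14 and 16 hpf, and the PNP values 36.1 and 45.4 TPM, 40.9 and 54.2 TPM, and 41.4 and 50.3 TPM. The pool types were apart at 10 hpf, and at 8 hpf with all values below 1 TPM, and overlapped later. hoxd9a had the largest rise of any member from 10 to 12 hpf, 3.70 ± 0.15 (SE) on the log2 scale (adjusted p = 3.11e-09).

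In TPM, hoxd9a lay between 0.13 and 0.36 at 8 hpf, and at 0.29 and 0.15 in MPNP and 0.56 and 0.79 in PNP libraries at 10 hpf. At 12 hpf it stood at 17.5 and 9.73 TPM against 22.6 and 24.3 TPM, at 14 hpf at 42.7 and 38.8 TPM against 46.6 and 41.7 TPM, and at 16 hpf at 38.1 and 44.5 TPM against 39.3 and 41.2 TPM. Its pool types were apart at 12 hpf, and at 10 hpf with all values below 1 TPM. hoxa9b took a like course, from 0.44 ± 0.255 TPM at 10 hpf to 17.3 ± 5.97 TPM at 12 hpf and 34.8 ± 2.89 TPM at 14 hpf.

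The number 10 genes were spread in time. hoxb10a, which mammals lack, lay between 0 and 0.12 TPM at 8 hpf and stood at 1.07 and 3.09 TPM in MPNP and 2.83 and 5.90 TPM in PNP libraries at 10 hpf. Its MPNP values were 18.1 and 23.7 TPM, 21.0 and 43.0 TPM, and 22.5 and 40.5 TPM at 12, 14 and 16 hpf, and its PNP values 17.5 and 32.6 TPM, 27.2 and 46.4 TPM, and 24.0 and 36.8 TPM. The library numbered 2 was the higher one in every pool type and stage, and the pool types overlapped from 10 hpf on.

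hoxa10b lay between 0 and 0.10 TPM in the 8 libraries of 8 and 10 hpf, and had the largest rise from 12 to 14 hpf, 1.72 ± 0.16 (SE; adjusted p = 6.92e-06). Its values were 1.48 and 1.19 TPM in MPNP against 2.01 and 2.89 TPM in PNP libraries at 12 hpf, 4.99 and 9.60 TPM against 8.70 and 11.27 TPM at 14 hpf, and 12.1 and 14.9 TPM against 15.8 and 17.6 TPM at 16 hpf. The pool types were apart at 12 and 16 hpf, and at 10 hpf at levels too low to read. hoxc10a reached 10.9 ± 2.22 TPM at 16 hpf.

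Number 11 and 12 genes pattern the tail end of the body and the fins, and none reached 1 TPM in all 4 libraries of a stage before 14 hpf. A hoxa11 gene (ENSDARG00000007009) lay between 0 and 0.11 TPM in the libraries of 8 and 10 hpf and between 0.55 and 1.31 TPM at 12 hpf. At 14 hpf it had 2.04 and 2.53 TPM in MPNP and 3.04 and 4.84 TPM in PNP libraries, and at 16 hpf 7.83 and 12.58 TPM against 11.54 and 11.17 TPM. The pool types were apart at 12 and 14 hpf and overlapped at 16 hpf. hoxd11a was at 0 in all 8 libraries of 8 and 10 hpf and reached 7.93 ± 1.67 TPM at 16 hpf, hoxc11a reached 5.25 ± 1.12 TPM and the other hoxa11 gene (ENSDARG00000104162) 4.66 ± 1.46 TPM. hoxc11b was the lowest number 11 gene with 1.04 ± 0.351 TPM.

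hoxd12a had the largest rise from 14 to 16 hpf, 1.68 ± 0.13 (SE; adjusted p = 2.35e-06). It lay between 0 and 0.13 TPM in the libraries of 8 and 10 hpf and between 0.08 and 0.55 TPM at 12 hpf. It then stood at 2.34 and 3.27 TPM in MPNP and 3.34 and 3.40 TPM in PNP libraries at 14 hpf, and at 9.72 and 15.63 TPM against 11.0 and 12.4 TPM at 16 hpf, where the pool types overlapped. They were apart at 14 hpf, and at 12 hpf with all values below 1 TPM. One hoxc12 gene (ENSDARG00000070352) reached 1.78 ± 0.879 TPM at 16 hpf, and the other (ENSDARG00000103133) did not pass 0.16 TPM in any library.

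Of the 6 number 13 genes, which act at the end of the axis and in the fins, hoxa13b alone reached 1 TPM in all 4 libraries of a stage. It had 0.12 and 0.11 TPM in MPNP and 0.04 and 0 TPM in PNP libraries at 8 hpf, and 0.09 and 0.13 TPM against 0.23 and 0.54 TPM at 10 hpf. At 12 hpf the values were 1.12 and 0.59 TPM against 1.1 and 2.21 TPM, at 14 hpf 1.75 and 1.87 TPM against 2.53 and 2.95 TPM, and at 16 hpf 1.69 and 2.21 TPM against 2.75 and 2.08 TPM. Both MPNP libraries lay below both PNP libraries at 14 hpf. The same order at 10 hpf and the reverse at 8 hpf were seen with all values below 1 TPM. hoxd13a reached 1.24 TPM in 1 library of 16 hpf, and hoxa13a, hoxb13a and both hoxc13 genes stayed below 1 TPM in all 20 libraries.

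**Figure D2:**
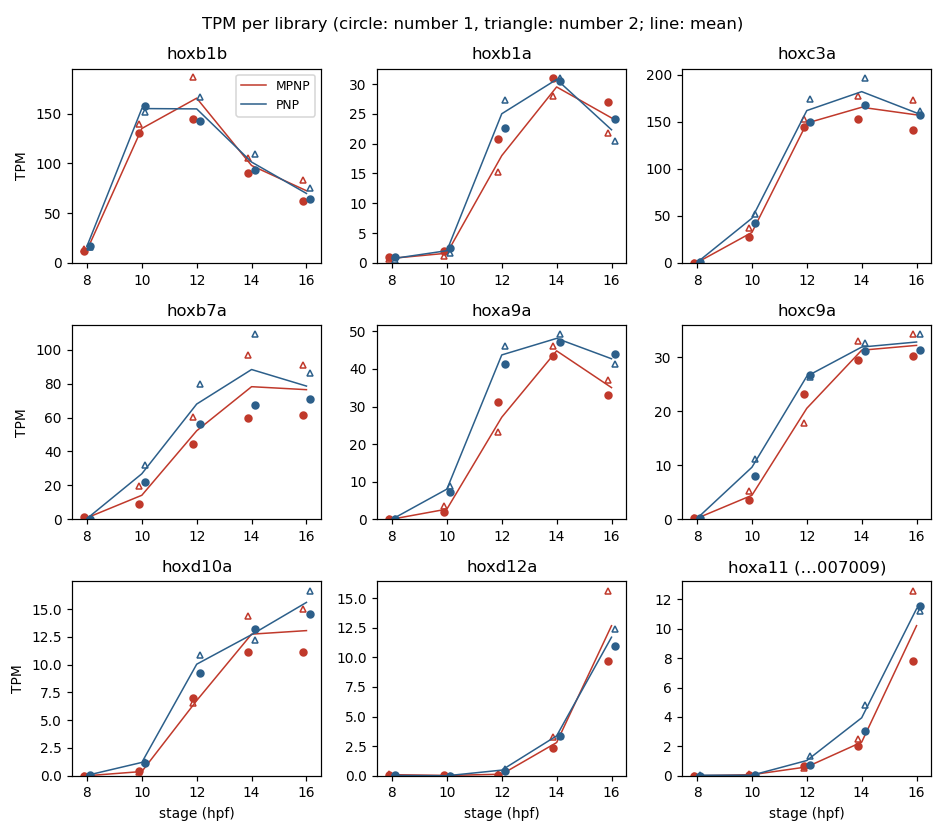
TPM of 9 Hox genes by stage in hpf (linear axes from 0), with 1 point per library (circle for number 1, triangle for number 2) and a line through the mean of the 2 libraries of each pool type. hoxb1b peaks at 10 to 12 hpf and declines, hoxa9a and hoxd10a run lower in MPNP at 10 and 12 hpf, and hoxd12a and hoxa11 climb at 16 hpf.

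Onset was taken as the first stage at which all 4 libraries reached 1 TPM. By that measure 1 member (hoxb1b) was on at 8 hpf, 14 more came on at 10 hpf, 15 at 12 hpf, 7 at 14 hpf and 4 at 16 hpf, and 7 had no onset. The order did not simply follow paralog number. All number 7 and 8 genes and 3 of the 5 number 9 genes were on at 10 hpf, while both number 2 genes and 2 of the 3 number 4 genes came on at 12 hpf. One of these, hoxb4a, missed 10 hpf by 1 MPNP library at 0.96 TPM, the others having 2.76, 3.29 and 2.13 TPM. By the mean of the 4 libraries hoxb4a, hoxa3a, hoxb6b and hoxc10a reached 1 TPM at 10 hpf. Lower MPNP values can also set the stage: at 10 hpf hoxd10a had 1.14 and 1.26 TPM in PNP but 0.45 and 0.31 TPM in MPNP libraries. Number 11 and 12 genes came on at 14 or 16 hpf or not at all. Across the 41 members with an onset, Spearman's rho between paralog number and onset was 0.27, and in the 4 series of libraries taken singly it ran from 0.28 to 0.40. These genes share libraries and clusters, and the value is given as a description only.

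A second measure was relative to each gene's own level. For the 33 members with a stage mean of at least 5 TPM, the time at which a series first reached 50% of its own highest value was read by linear interpolation. It was earliest for hoxb1b (9.04 ± 0.163 hpf, SD of 4 series), followed by hoxb8a (9.93 ± 0.446 hpf) and hoxc8a (10.4 ± 0.266 hpf), and latest for hoxd12a (14.7 ± 0.074 hpf). By number, the median was earliest for number 1, at 10.2 hpf (2 genes). It was 13.1 hpf for number 2 (2 genes) and 12.1 hpf for number 3 (4 genes). Numbers 4 (2 genes), 5 (2 genes) and 6 (4 genes) had 11.6, 12.6 and 11.1 hpf. Numbers 7 (1 gene), 8 (3 genes) and 9 (5 genes) had 11.1, 10.4 and 11.3 hpf. Numbers 10 (4 genes), 11 (3 genes) and 12 (1 gene) had 12.5, 14.6 and 14.7 hpf. Spearman's rho with paralog number was 0.33 over the 33 genes, none of which is of number 13. For genes still rising at 16 hpf this time is set by the end of the series.

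**Figure D3:**
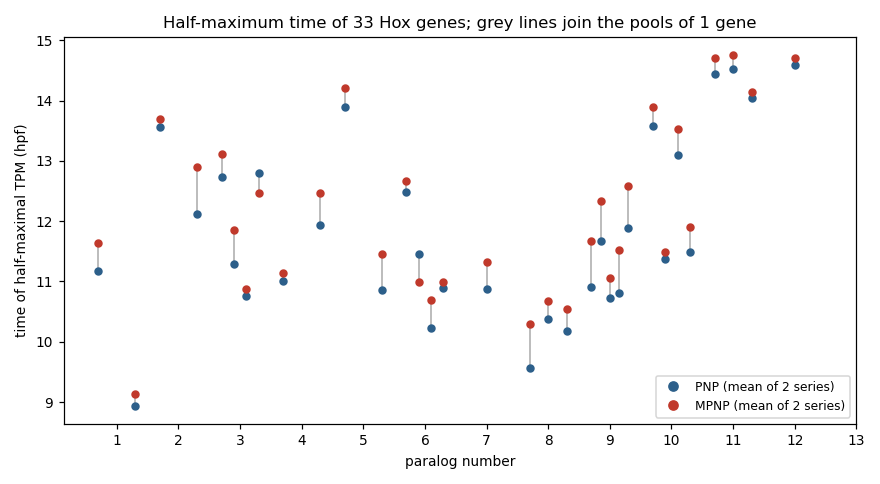
Time in hpf at which each of 33 Hox genes reached 50% of its own highest TPM, by paralog number (genes of a number are set side by side), as the mean of 2 series in PNP (blue) and MPNP (red), joined by a grey line. The earliest time is that of hoxb1b near 9 hpf. Points of the number 8 genes lie between 9.57 and 10.7 hpf and those of numbers 11 and 12 between 14 and 15 hpf. The MPNP point is the later one in 31 of 33 genes, and no such count was made for other genes.

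The test of each step between stages, over both pool types, was made for the 39 members that averaged 1 TPM or more. The lowest members inside that limit were hoxa13b, with a mean of 1.21 TPM over the 20 libraries, and hoxc1a, with 1.22 TPM, and hoxc12 (ENSDARG00000070352) outside it had 0.442 TPM. Among the 9 left out were hoxc11b, both hoxc12 genes and the number 13 genes other than hoxa13b. From 8 to 10 hpf 25 of the 39 rose, against 21.5% of all 14774 genes tested. From 10 to 12 hpf 35 rose (24.5% of all genes), from 12 to 14 hpf 23 rose (13.9%) and hoxb1b fell (9.08%), and from 14 to 16 hpf 11 rose (8.92%) and hoxb1b fell (6.76%). The median change of the 39 was 0.70, 1.40, 0.56 and 0.23 on the log2 scale, beside 0.06, 0.08, 0.02 and -0.02 over all genes.

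The numbers that rose differed between steps. From 8 to 10 hpf all tested members of numbers 3, 6, 7 and 8 and 4 of the 5 number 9 genes rose, and neither number 2 gene nor any of the 4 number 11 genes tested did. From 10 to 12 hpf every tested gene of numbers 2 to 10 rose. From 12 to 14 hpf both number 2 genes, 3 of the 4 number 3 genes and 4 of the 5 number 9 genes rose, as did all 4 number 11 genes tested, and none of the 3 number 8 genes did. The 11 that rose from 14 to 16 hpf were all 4 number 11 genes tested and hoxd12a, by 0.91 to 1.68, with 5 genes of numbers 2 to 5 and 1 of number 10, and no tested gene of numbers 6 to 9 passed the test.

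The summed Hox level was lower in MPNP than in PNP pools, without overlap, at 8, 10 and 12 hpf. The summed level at 10 hpf was 220 and 266 TPM in MPNP against 313 and 350 TPM in PNP libraries, and at 12 hpf 672 and 709 TPM against 744 and 882 TPM. At 8 hpf it was 17.0 and 19.4 TPM against 23.2 and 23.5 TPM, and the pool types overlapped at 14 and 16 hpf. Most of the sum at 8 hpf came from hoxb1b, with 11.5 and 13.8 TPM in MPNP against 17.0 and 16.3 TPM in PNP libraries. At 10 hpf the 2 highest members made up 58.5% to 71.9% of it. No like sum was taken over other genes. In bulk RNA from pools, fewer cells that express a gene and less RNA per cell cannot be told apart, nor can a small change in all embryos and a larger one in some.

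Averaged over the 5 stages, the estimated difference was negative for all 39 members tested, and for 8802 of the 14774 genes (59.6%). The median was -0.23 on the log2 scale for the members and -0.03 for all genes, and 4 members passed the limma test, against 2.67% of all genes called lower. These were hoxa9a (-0.47 ± 0.09, SE; adjusted p = 0.00529), hoxd10a (-0.30 ± 0.07; adjusted p = 0.0280), hoxb6a (-0.30 ± 0.08; adjusted p = 0.0420) and hoxa9b (-0.30 ± 0.08; adjusted p = 0.0458). When 1 library at a time was left out, hoxa9a was called in all 20 fits, hoxd10a in 9 and hoxb6a and hoxa9b in 2 each. Under quantile normalization 38 of the 39 were negative, and with a pseudocount of 0.1 TPM 37 were. Same-numbered libraries of the pool types deviated together, and a fit with the replicate number as a block within each stage called 14 members lower and none higher, against 10.4% of all genes called lower. The others it called were hoxb2a, hoxc3a, hoxd3a, hoxb5 (ENSDARG00000054030), hoxb7a, hoxb8a, hoxb9a, hoxc9a, hoxa10b and hoxb10a.

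**Figure D4:**
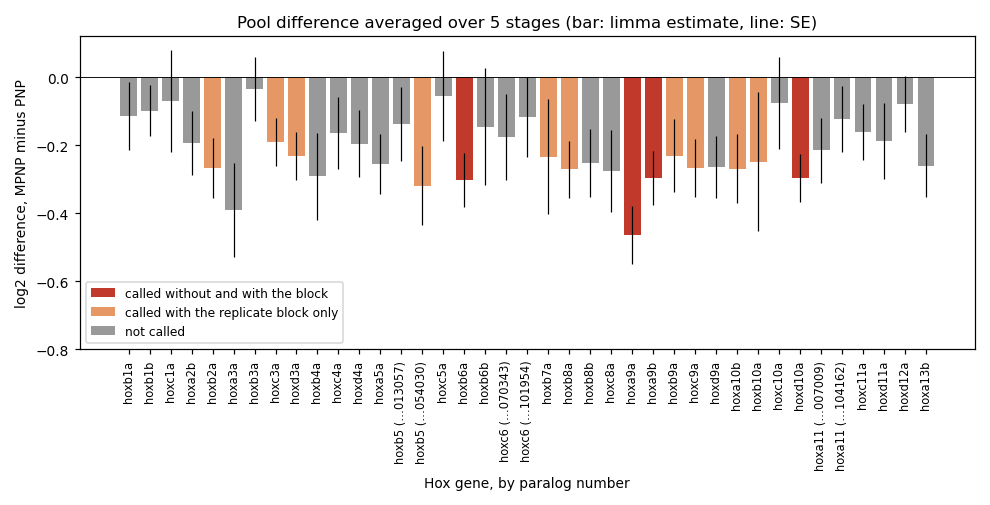
MPNP minus PNP difference averaged over 5 stages on the log2(TPM + 1) scale for the 39 Hox genes tested, ordered by paralog number, with bars for the limma estimate and lines for its SE without the replicate block, coloured by whether a gene was called without and with the block, with it only, or in neither. All 39 bars point down, hoxa9a being the longest at -0.47.

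By stage, 1 member was called at 10 hpf (0.0745% of all genes were called lower there) and none at 8, 12, 14 or 16 hpf, where 0.129%, 0.0609%, 0.0812% and 0.0948% of all genes were called lower. At an unadjusted p under 0.05 there were 1, 13, 10, 2 and 1 members at the 5 stages, beside 1307, 1309, 959, 927 and 941 of the 14774 genes. The median difference of the members was -0.05 at 8 hpf, -0.31 at 10 hpf, -0.31 at 12 hpf, -0.18 at 14 hpf and -0.10 at 16 hpf, beside -0.03, -0.08, -0.02, 0.01 and -0.01 over all genes. At 8 hpf only 1 or 2 members per library reached 1 TPM, and the log2(TPM + 1) scale keeps differences of such low values near 0. With a pseudocount of 0.1 TPM the medians were -0.18, -0.67, -0.38, -0.20 and -0.11, so their course depends on the scale. Leaving out 1 library moved several of the medians on the log2(TPM + 1) scale. At 8 hpf it was -0.02 without MPNP replicate 1 and 0 without either PNP library, and at 12 hpf -0.18 without PNP replicate 2. At 14 hpf it was -0.06 and -0.32 without MPNP replicates 1 and 2, and -0.33 and -0.08 without PNP replicates 1 and 2. At 16 hpf it turned to 0.06 (13 of 39 negative, against 30) without MPNP replicate 1, and was -0.31 without MPNP replicate 2 and -0.15 and -0.06 without PNP replicates 1 and 2. At 10 hpf and on the average no library moved it by more than 1.5 times. With the replicate block 7 members were called at 10 hpf (2.02% of all genes were called lower) and 1, hoxb1b, at 8 hpf (2.08%), with none at 12, 14 or 16 hpf (0.609%, 0.359% and 0.927%). The difference at 16 hpf minus that at 8 hpf passed the test for none of the 39 in either fit (0.223% and 1.79% of all genes called in either direction), with 0 and 2 members at an unadjusted p under 0.05, beside 978 and 2522 of the 14774 genes. With most members below 1 TPM at 8 hpf, this contrast has little baseline and cannot show whether their pool difference changed. Its median was -0.09, and 0.04 with a pseudocount of 0.1 TPM.

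Counts of members whose MPNP libraries both lay below both PNP libraries took a like course. There were 10 of 39 at 8 hpf (19.7% of all genes tested), 22 at 10 hpf (22.8%), 21 at 12 hpf (18.4%), 13 at 14 hpf (12.6%) and 6 at 16 hpf (14.4%). The reverse order was seen for 3 members at 8 hpf (13.6%) and for none at the later stages (8.58%, 9.97%, 13.5% and 15.6%).

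**Figure D5:**
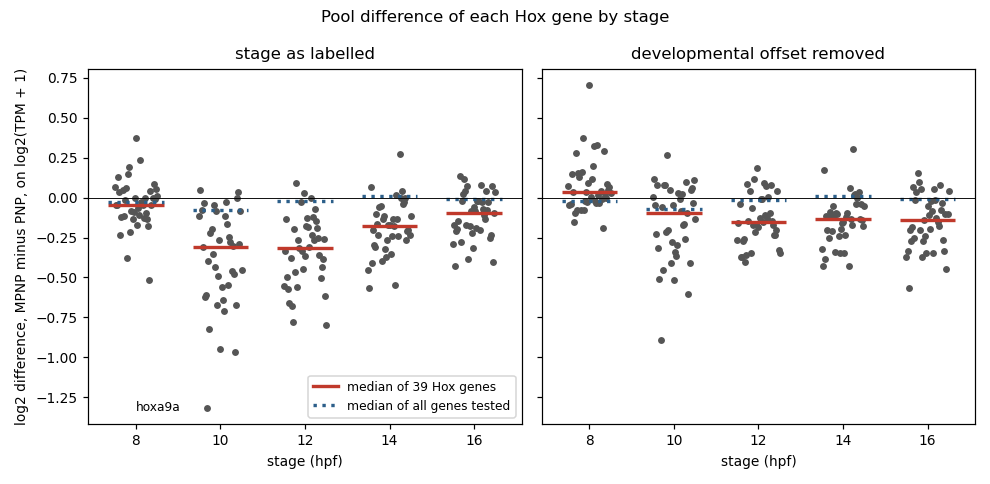
MPNP minus PNP difference on the log2(TPM + 1) scale for each of the 39 Hox genes tested (points) by stage in hpf, with the median of these genes (solid line) and of all genes tested (dotted line), for stages as labelled (left) and with each library's developmental offset removed (right). The median of the Hox genes lies near -0.31 at 10 and 12 hpf on the left and between -0.15 and 0.04 at all stages on the right, and hoxa9a at 10 hpf is the lowest point of both panels.

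The gene hoxa9a (ENSDARG00000105013) had the largest difference of any member. At 8 hpf it was at 0.07 and 0 TPM in MPNP and at 0 in both PNP libraries, and at 10 hpf at 1.87 and 3.54 TPM against 7.23 and 8.81 TPM. At 12 hpf it stood at 31.1 and 23.2 TPM in MPNP and 41.3 and 46.1 TPM in PNP libraries, at 14 hpf at 43.5 and 46.1 TPM against 47.0 and 49.2 TPM, and at 16 hpf at 33.03 and 37.03 TPM against 44.1 and 41.4 TPM. Both MPNP libraries lay below both PNP libraries at the 4 stages from 10 hpf on.

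At 10 hpf the mean of hoxa9a was 2.71 ± 1.18 TPM in MPNP and 8.02 ± 1.12 TPM in PNP libraries (SD, n = 2 each), a difference of -1.32 ± 0.19 (SE) on the log2(TPM + 1) scale (adjusted p = 0.0161; 0.00615 with the replicate block). At 12 hpf the difference was -0.68 ± 0.19 (adjusted p = 0.237; 0.0581 with the block), at 14 hpf -0.10 ± 0.19 (adjusted p = 1) and at 16 hpf -0.28 ± 0.19 (adjusted p = 1). The call at 10 hpf was lost without MPNP replicate 1 (-0.98; adjusted p = 0.0729), PNP replicate 1 (-1.44; adjusted p = 0.0709) or PNP replicate 2 (-1.19; adjusted p = 0.187) of that stage. The call on the average held when any 1 of the 20 libraries was left out, with differences from -0.53 to -0.40. With a pseudocount of 0.1 TPM, which gives weight to the values near 0 at 8 hpf, hoxa9a was not called on the average.

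The block fit at 10 hpf also called hoxc9a, hoxb9a, hoxc3a, hoxb7a, hoxb10a and hoxd10a. hoxc9a stood at 3.64 and 5.24 TPM in MPNP against 8.08 and 11.18 TPM in PNP libraries at that stage, a log2 difference of -0.97 ± 0.19 without the block (adjusted p = 0.0634; 0.00763 with it). Its values at 8 hpf were 0.22 and 0.15 TPM against 0.32 and 0 TPM, at 12 hpf 23.3 and 17.8 TPM against 26.6 and 26.3 TPM, at 14 hpf 29.5 and 33.1 TPM against 31.1 and 32.6 TPM, and at 16 hpf 30.1 and 34.3 TPM against 31.4 and 34.2 TPM. For hoxc9a the pool types were apart at 10 and 12 hpf and overlapped at 14 and 16 hpf.

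hoxd10a was at 0 TPM in 3 of the 4 libraries of 8 hpf and at 0.07 TPM in the fourth. It stood at 0.45 and 0.31 TPM in MPNP against 1.14 and 1.26 TPM in PNP libraries at 10 hpf, and at 6.96 and 6.59 TPM against 9.22 and 10.87 TPM at 12 hpf. At 14 hpf its values were 11.2 and 14.4 TPM against 13.2 and 12.2 TPM, and at 16 hpf 11.2 and 15.0 TPM against 14.6 and 16.7 TPM, so that the pool types were apart at 10 and 12 hpf and overlapped later. Its log2 difference at 10 hpf was -0.67 ± 0.16 (adjusted p = 0.136; 0.0480 with the block). The other members called by the block fit at 10 hpf had differences of -0.55 ± 0.16 (hoxc3a), -0.71 ± 0.24 (hoxb9a), -0.95 ± 0.38 (hoxb7a) and -0.82 ± 0.46 (hoxb10a), with SEs and no call from the fit without the block.

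The developmental offsets estimated from the other genes were more negative in MPNP than in PNP pools up to 14 hpf, but not at 16 hpf. Each library's offset from its stage mean was estimated from the 14735 tested genes that are not Hox members. The MPNP pools lay at -0.19 h relative to PNP at 8 hpf, -0.33 h at 10 hpf, -0.36 h at 12 hpf, -0.21 h at 14 hpf and 0.21 h at 16 hpf. At 12 hpf the MPNP library numbered 2 was at -0.39 h and that numbered 1 at 0.03 h. With these offsets removed, the median difference of the members was 0.04, -0.10, -0.15, -0.13 and -0.14 at the 5 stages and -0.11 on the average. The medians of all genes were -0.02, -0.07, -0.02, 0.01 and -0.01, and -0.02 on the average. The average difference was still negative for 33 of the 39 members, and for 58% of all genes. No member was called at any stage or on the average. Over all genes, 0.088%, 0.0474%, 0.0541%, 0.0338% and 0.0948% were called lower at the 5 stages and 2.07% on the average. At an unadjusted p under 0.05 the average had 7 of the 39 members and 2304 of the 14774 genes, against 19 and 2531 with stages as labelled. The difference of hoxa9a at 10 hpf was then -0.89 ± 0.20 (adjusted p = 0.138). With the block as well, hoxa9a (-0.89; adjusted p = 0.0231) and hoxc9a (-0.61; adjusted p = 0.0239) were called at 10 hpf, where 1.22% of all genes were called lower, and hoxa9a on the average (-0.27; adjusted p = 0.0197), where 9.0% were.

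Read as time, the members reached 50% of their own highest TPM later in MPNP than in PNP for 31 of the 33 genes. The median lag was 0.33 h, and the range ran from -0.47 h for hoxb6b to 0.77 h for hoxa9a. Whether this lag and the offsets of the other genes go together was not tested. The libraries numbered 1 gave a median lag of 0.17 h (27 of 33 genes later in MPNP). Those numbered 2, which hold the MPNP library with an offset of -0.39 h at 12 hpf, gave 0.52 h (29 of 33). These times were not taken for genes other than Hox members. The counts therefore have no share over all genes beside them and do not show a trait particular to Hox genes.

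Genes that act with or upstream of Hox genes were taken from 7 short lists. Of 10 Pbx, Meis and Pknox cofactor genes tested, 1 was lower in MPNP on the average (2.67% of all genes) and none higher. It was meis1 (ENSDARG00000012078), lower in MPNP than in PNP by 0.33 ± 0.04 on the log2 scale (adjusted p = 0.00033). The block fit called meis1, meis2, meis2b and meis3 lower (10.4% of all genes). At 10 hpf meis1 stood at 20.9 and 19.9 TPM in MPNP and at 27.8 and 26.3 TPM in PNP libraries, and its libraries did not overlap at 8, 12, 14 or 16 hpf either, where it had 93.3 and 91.4 TPM against 103 and 102 TPM at the last stage. The next smallest p was that of meis1a (-0.28 ± 0.09; adjusted p = 0.0871).

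Of 14 retinoic acid genes tested, 1 was higher (2.62% of all genes) and 1 lower (2.67%). The synthesis enzyme gene aldh1a2 was lower by the average (-0.22 ± 0.05; adjusted p = 0.0164), and at 16 hpf it had 14.4 and 15.4 TPM in MPNP against 22.6 and 21.4 TPM in PNP libraries. An rdh10 gene (ENSDARG00000012369), for the preceding step of synthesis, was higher (0.46 ± 0.11; adjusted p = 0.0299), with 67.6 and 74.5 TPM against 38.4 and 49.2 TPM at 16 hpf. For both aldh1a2 and this rdh10 gene the pool types overlapped at 10 hpf. The other rdh10 gene (ENSDARG00000058730) differed: both MPNP libraries lay below both PNP libraries at 8, 10 and 16 hpf. They lay above them at 14 hpf and overlapped with them at 12 hpf. The degrading enzyme gene cyp26a1 had a difference of 0.14 (adjusted p = 0.517; 0.00595 with the block, which called 4 genes of the list higher and 1 lower). Of all 14774 genes the block fit called 1034 higher and 1540 lower. The receptor gene raraa had 0.20 ± 0.06 (adjusted p = 0.0851) and cyp26c1 -0.21 ± 0.08 (adjusted p = 0.180).

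Of 8 hindbrain genes described here none passed the limma test on the average. An unadjusted p under 0.05 was seen for 2 of them, beside 2531 of the 14774 genes tested. The block fit called epha4 and gbx1 lower, against 10.4% of all genes. egr2 (ENSDARG00000042826) had -0.21 (adjusted p = 0.317), mafb -0.18, epha4 -0.21 ± 0.07 (adjusted p = 0.104) and gbx1 -0.14 ± 0.05 (adjusted p = 0.182). At 12 hpf, when egr2 comes on, it stood at 5.63 and 2.58 TPM in MPNP against 7.85 and 9.88 TPM in PNP libraries, a log2 difference of -1.01 ± 0.22 (adjusted p = 0.0890), and at 14 and 16 hpf the difference was -0.12 and 0.04. None of the 12 posterior axis genes passed the test without the block (3 at an unadjusted p under 0.05, beside the same 2531 of 14774 genes). With the block msgn1 and an fgf8 gene were called lower, against 10.4% of all genes. tbxta, the notochord and tailbud gene, had -0.04, msgn1 -0.22 ± 0.07 (adjusted p = 0.0858) and the fgf8 gene -0.15 ± 0.06 (adjusted p = 0.171).

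Neither caudal gene tested was called without the block: cdx4 had -0.12 ± 0.14 (adjusted p = 0.791; 0.0230 with the block) and cdx1a 0.02 ± 0.06 (adjusted p = 0.961). At 10 hpf, cdx4 stood at 428 and 571 TPM in MPNP against 483 and 625 TPM in PNP libraries, with the higher value in the libraries numbered 2. Over time cdx4 rose from 8 to 10 hpf by 1.2 ± 0.22 (adjusted p = 0.000722) and cdx1a by 1.49 ± 0.10 (adjusted p = 2.05e-07), in the interval when 25 Hox members rose. cdx1a fell from 12 to 14 hpf by 0.93 ± 0.10 (adjusted p = 2.59e-05) and from 14 to 16 hpf by 1.33 ± 0.10 (adjusted p = 1.97e-06), while aldh1a2 fell from 10 to 12 and from 12 to 14 hpf by 0.57 ± 0.08 and 1.31 ± 0.08 (adjusted p = 6.94e-05 and 1.62e-07). The even-skipped gene eve1 (-0.06) and the 11 Polycomb and trithorax genes tested gave no call on the average in the limma fit without or with the block, and none had an unadjusted p under 0.05 there. The lists' medians on the average were -0.16 for cofactors, -0.09 for retinoic acid, -0.16 for hindbrain, -0.08 for posterior axis, -0.05 for caudal and -0.03 for Polycomb and trithorax genes, beside -0.03 for all genes tested.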

How the data were processed

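RNA was selected for poly(A) and sequenced as paired reads of 150 bases from about 500 ng of total RNA per library, per the labels' protocols. The deposited values were TPM, rounded to 2 decimals by the authors, for 32057 Ensembl gene IDs in 20 libraries of 10 groups, and 4 unnamed columns of the table were not used. The submitters' processing notes name the build GRCz11 and the tools DESeq2 1.42.1, HTSeq 0.12.3, RSEM 1.3.3, STAR 2.7.3a and R 4.3.3; the sources used here do not say which made the table. Depth is lost in TPM, so the reads behind a value are unknown and no counting interval is given. TPM is also relative: a member can move because other transcripts do.

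A gene name table gave symbols for 28988 of the 32057 IDs. Of the 48 members, 15 had a paralog letter there, 23 took the only symbol left with that stem in RefSeq (GRCz12tu), and 10 stayed unsettled and are named with their ID. RefSeq held 49 Hox symbols; hoxa4a matched no ID and was not analysed here. No coordinates or sequences are given. Some genes are not reported here by name; the counts of the hindbrain list leave them out, while the counts of Hox members include them. Of 64 entries of the context lists all matched, 23 only once their paralog letter was left off.

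log2(TPM + 1) was fitted with limma 3.58.1 (R 4.3.3), 1 mean per group over all 20 libraries, with an intensity trend and 10 residual degrees of freedom, for the 14774 genes (39 of them members) that averaged 1 TPM or more. Step contrasts averaged both pool types. P-values are 2-sided, adjusted over the whole set of genes tested (Benjamini-Hochberg), with 0.05 as threshold; "called" means below it. Differences on the log2(TPM + 1) scale understate those of low genes. The labels leave it unsaid whether the 2 libraries of a group had separate parents: p-values measure the spread between these samples, which may be technical. The fit without the block was run on simulated data whose libraries varied independently, while same-numbered libraries here deviated together. The fits with the block or with offsets removed were not run on simulated data.

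Deviations from group means correlated between same-numbered MPNP and PNP libraries at 0.485, 0.586, 0.615, 0.539 and 0.601 across genes at the 5 stages. Same-numbered libraries were on that ground treated as pairs, which rests on the data alone, as no label explains the numbers. A developmental offset per library was the slope of its deviation from the stage mean on each gene's local change per hour, over the tested genes other than Hox members. Removing it removes any pool effect that lies along that slope.

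Values in every library are given for hoxa9a, for the 8 with the smallest p of the 15 members called in any pool contrast in either fit, for the most abundant member of each paralog number and for the largest riser at each step; the rest are given by number. Of the context lists, 7 genes listed in the rule and up to 2 more per list by p are named. The members, lists and rules were chosen with earlier results of these data known.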

Additional observations from a re-analysis of the deposited data

Results flagged for a closer look

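For hoxb7a the pool difference at 10 hpf minus that at 8 hpf was -1.318 on the log2(TPM + 1) scale. Both MPNP libraries (1.25 and 0.47 TPM) lay above both PNP libraries (0.41 and 0.40 TPM) at 8 hpf and below them at 10 hpf (8.89 and 19.44 TPM against 21.76 and 31.95 TPM). For hoxa13b the value was -0.4392, with 0.12 and 0.11 TPM against 0.04 and 0 TPM at 8 hpf and 0.09 and 0.13 TPM against 0.23 and 0.54 TPM at 10 hpf, all below 1 TPM. A limma test of this difference, added after the pattern was seen, gave an adjusted p of 1 for both genes. It called 0 of the 14774 genes, with 578 genes and 4 Hox members at an unadjusted p under 0.05. Groups of 2 libraries were too small for a test of single libraries that stand apart.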

How the results depend on the processing

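With the replicate block, 1 member was called at 8 hpf, 7 at 10 hpf and 14 on the average; it changed no other call of a member in the pool contrasts. With a pseudocount of 0.1 the counts were 3 at 10 hpf (hoxd10a, hoxa5a and hoxa9a), 15 from 12 to 14 hpf and 5 from 14 to 16 hpf. Counts for steps take rises and falls together here, and with a pseudocount of 1 they were 24 and 12 at these 2 steps. Among all genes tested that pseudocount gave 38, 3028 and 1826 calls. Without the filter 2 were called on the average, among 876 genes called in all. With a mean TPM of at least 5, which leaves 23 members, 2 were called on the average, 22 from 10 to 12 hpf, 13 from 12 to 14 hpf and 3 from 14 to 16 hpf. All genes above that limit gave 493, 4021, 2111 and 1337 calls. With the offset removed 0 were called at 10 hpf and 0 on the average, and hoxa9a at 10 hpf was -0.89; with offset removal and block together, added after seeing the data, 2 and 1 were called. The 4 libraries of 10 hpf alone gave 0 calls among all genes tested, so that this fit tells nothing about the members in particular. There hoxa9a was at -1.32 (adjusted p = 1.00). PNP libraries alone gave 14 from 12 to 14 hpf and 4 from 14 to 16 hpf, among 1357 and 706 genes called in all. Libraries numbered 1 alone and those numbered 2 alone each gave 0 calls on the average, with 38 and 35 of 39 differences negative. Over all genes tested these fits called 146 and 282. Spearman's rho for onset was 0.33 with the time to 50% of the maximum, a measure added after seeing the data.

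With 1 library left out at a time, the remaining library of its group is assumed to vary like the others. In these fits hoxa9a at 10 hpf ran from -1.65 to -0.98, and the median of the members on the average from -0.26 to -0.17. On the average fewer members were called without most of the libraries, and fewer genes in all as well. Member counts at 10 and 12 hpf and at the steps also moved with the library left out, as did those over all genes. Such counts are therefore no result about the members. The difference of hoxa9a at 10 hpf kept its sign under all alternatives run. Both MPNP libraries lay below both PNP libraries there, so most of these alternatives could not have changed the sign. Without MPNP replicate 1 of 16 hpf the median of the 39 members turned from -0.10 to 0.06 at 16 hpf and from -0.09 to 0.06 for 16 minus 8 hpf. Quantile normalization, a pseudocount of 0.5 and a fit without the intensity trend left every count within 1.5 times. Groups of 2 and values near 1 TPM limit what can be seen for number 12 and 13 genes.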

Other observations

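Levels differed between replicate numbers, by a like amount in the members and in all genes tested. Averaged over groups, libraries numbered 2 were higher than those numbered 1 by a median of 0.13 on the log2 scale over the 39 Hox members (34 of 39 higher) and of 0.10 over all genes tested (9903 of 14774 higher). hoxb10a stood out by its values, with 21.0 TPM in the MPNP and 27.2 TPM in the PNP library numbered 1 at 14 hpf against 43.0 and 46.4 TPM in those numbered 2. hoxb3a, in contrast, had 24.9 and 26.9 TPM in the libraries numbered 1 and 16.2 and 22.1 TPM in those numbered 2 at 12 hpf. These genes were chosen after their values were seen, and no label explains the numbers.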
